A study of Oryza sativa with 4 samples.

Results

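A group of 71 probe sets had intensities at least 2-fold lower on the array of ago2-1 than on the array of the wild type in both of 2 field seasons, 2013 and 2014. They were selected on the deposited intensities themselves, as a log2 difference, ago2-1 minus wild type, of at most −1 in each year. Of all 57194 probe sets 73 met both limits, which is 0.128%, and the probe sets of RAFTIN1 and DREB1G among them were left out. Since the genotype differences chose the members, they are given below as a description with no test. A probe set is a group of short probes on an Affymetrix array that together read 1 transcript, and a gene can have several. The platform's annotation ties 37 of the 71 to 1 gene each, 37 genes in all, and lists no gene for the other 34. By that annotation 52.1% of the members have a gene, against 39.2% of all probe sets.

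The RNA came from young panicles, collected before stage 5, of field-grown plants under normal conditions. The wild type was the rice (Oryza sativa) cultivar ZH11, written WT. The other genotype, ago2-1, carries an antisense construct against OsAGO2, for which neither the promoter nor the number of independent lines is given in the sources used here. Each genotype was measured on 1 array in each year, 4 arrays in all, so each difference within a year rests on 2 arrays with no replicate inside the year. Nothing says how many plants were pooled for an array, and in bulk panicles fewer cells of a type and less RNA per cell cannot be told apart.

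AGO2 is an argonaute, a protein that binds small RNAs and uses them to find matching transcripts to silence. The young panicle holds meristems, floral organs and early anthers, in which the tapetum is the layer that feeds developing pollen. Few members have a known name. SUS3 is a sucrose synthase, which splits sucrose into fructose and UDP-glucose; Cht7 and RC24 are chitinases, which cut the chitin of fungal walls; HSP16.9B is a small heat shock protein, a chaperone that holds unfolding proteins.

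Across the whole series, the probe set of the targeted gene AGO2 (LOC4336991) had log2 intensities of 9.54 (WT) and 9.62 (ago2-1) in 2013 and 10.53 and 10.98 in 2014, so in neither year did the ago2-1 array read below the WT array. Which stretch of AGO2 the antisense sequence matches is not stated, and "ago2-1 array" below means an array with that label. Of 11 measured panicle and floral meristem markers 10 lay above the array median on all 4 arrays, among them MADS1 and OSH1; FZP did not. The arrays of the years differ in scale, with array medians of 4.86 and 4.85 log2 in 2013 and 5.50 on both arrays of 2014, so levels were compared within a year, or between years only after scaling. Log2 intensities below are on the deposited scale unless quantile scaling, which gives all 4 arrays 1 distribution, is named.

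Most of the 71 members were lower by a modest amount. Their difference had a median of −1.43 in 2013, with a lowest value of −6.23, and a median of −1.68 in 2014, with a lowest value of −6.19. The median over all probe sets was 0.01 in 2013 and 0 in 2014. At least 4-fold in both years were 11 members, and 6 of these were at least 16-fold lower in both years. With intensities under 16 raised to 16, these counts were 11 and 4. The yearly differences alone were far more numerous, with 910 probe sets at −1 or below in 2013 and 168 in 2014. The 73 that met both limits make up 8.02% of the first group and 43.5% of the second.

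**Figure D1:**
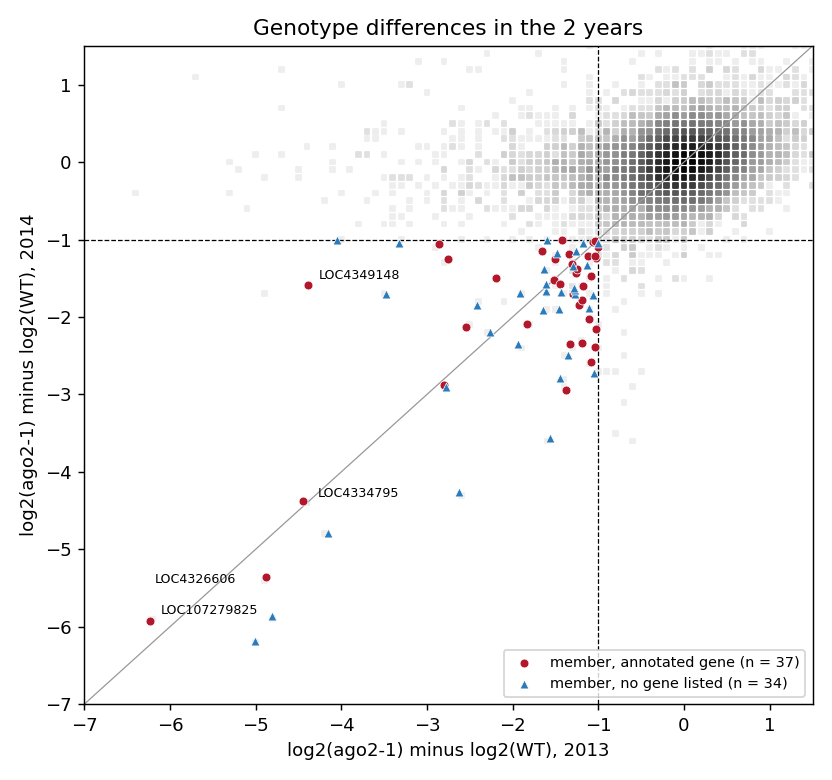
Each point is a probe set, with its log2 difference, ago2-1 minus WT, in 2013 on the horizontal axis and in 2014 on the vertical axis. Grey squares are counts of all 57194 probe sets in bins (darker is more, axes limited to the range shown), red circles the 37 members with an annotated gene and blue triangles the 34 without. Dashed lines mark −1 in each year, below and left of which the members lie by choice, and the thin diagonal marks equal differences. The members thin out from the corner at −1 towards 6 probe sets at or below −4 in both years.

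The limit at −1 cuts through a dense region. The member closest to it was Os.51929.1.S1_at, with −1.60 in 2013 and −1.0 in 2014, and the closest with a gene was LOC4325516, with −1.43 and −1.01. Just outside lay Os.23228.1.A1_at, with −1.28 and −0.999, LOC4335533, with −0.997 and −1.14, and LOC4336415, with −2.30 and −0.995. In all, 18 members had their nearer difference between −1.1 and −1, and 15 probe sets lay between −1 and −0.9 outside the group.

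LOC107279825 had the largest mean difference of all members on the deposited values. Its deposited intensity was 364 (WT) and 4.84 (ago2-1) in 2013, and 975 and 16 in 2014. Both WT arrays were bright and both ago2-1 arrays dim, at percentiles 9.61 and 25.2 of all probe sets of their array. The difference was −6.23 in 2013 and −5.93 in 2014, but the first rests on the dim value of 4.84. With intensities under 16 raised to 16 the differences were −4.51 and −5.93, and their mean of −5.22 ranked behind −5.33 and −5.27 for Os.50472.2.S1_x_at and Os.50472.2.S1_s_at, described below. The gene has no other probe set.

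LOC4326606 and LOC4334795 were close behind. LOC4326606 had intensities of 335 (WT) and 11.4 (ago2-1) in 2013 and 1088 and 26.4 in 2014, a difference of −4.87 and −5.36. LOC4334795 had 195 and 8.97 in 2013 and 384 and 18.5 in 2014, a difference of −4.44 and −4.37. With the same floor the differences were −4.39 and −5.36 for LOC4326606 and −3.61 and −4.37 for LOC4334795, so how alike the years were depends on dim ago2-1 values. In both genes the ago2-1 arrays lay in the lower part of their arrays, between percentiles 23.5 and 38.0.

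LOC4329395 and LOC9269982 complete the annotated members at least 4-fold lower in both years. LOC4329395 had 120 and 17.1 in 2013 and 259 and 35.3 in 2014, or −2.80 and −2.87. LOC9269982 was bright on the ago2-1 arrays as well. Its intensity was 2120 (WT) and 363 (ago2-1) in 2013 and 2236 and 513 in 2014, a difference of −2.55 and −2.12. On the ago2-1 arrays it lay at percentiles 82.1 and 80.9.

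Among members without an annotated gene, the largest and next largest mean differences came from a single cluster number of the array's design. Os.50472.2.S1_s_at had intensities of 477 and 14.9 in 2013 and 796 and 11 in 2014, or −5.00 and −6.19. Os.50472.2.S1_x_at had 1644 and 58.7 in 2013 and 2619 and 45.2 in 2014, or −4.81 and −5.86, and Os.50472.1.S1_at had 93.1 and 15.1 in 2013 and 445 and 23.2 in 2014, or −2.63 and −4.26. The suffixes _s_at and _x_at mark probe sets whose probes match more than 1 transcript or may cross-hybridise, and the 3 share a design number, so they are not independent measures. Os.6758.1.S1_at, with 172 and 9.63 in 2013 and 369 and 13.3 in 2014, differed by −4.16 and −4.79. None of these 4 has a gene in the annotation used here. The other 30 members without a gene had mean differences from −2.84 to −1.02.

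In several members 1 season carried most of the difference. For 13 members the 2014 difference was larger by at least 1 log2, and for 6 the 2013 difference was; 42 members differed by under 0.5 between the years, 23 of them annotated. LOC4349148 had the widest gap among annotated members, with intensities of 1100 (WT) and 52.4 (ago2-1) in 2013 and 164 and 54.8 in 2014. After quantile scaling its WT value changed by −3.35 from 2013 to 2014 and its ago2-1 value by −0.55. The difference between the genotypes went from −4.39 to −1.58.

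LOC4341697 and LOC4324704 were the other annotated members with the larger difference in 2013. LOC4341697 had 91.8 and 13.6 in 2013 and 68.0 and 28.5 in 2014, or −2.76 and −1.25. LOC4324704 had 384 and 52.8 in 2013 and 298 and 143 in 2014, or −2.86 and −1.06. In both the ago2-1 array was higher in 2014 than in 2013 while the WT array was lower.

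On the other side, 6 annotated members were at least 1 log2 further apart in 2014. LOC4341720 had intensities of 419 and 161 in 2013 and 311 and 40.5 in 2014, or −1.38 and −2.94. LOC4341486 had 318 and 149 in 2013 and 129 and 21.6 in 2014, or −1.09 and −2.58. LOC4349162 had 934 and 371 in 2013 but 38.4 and 7.52 in 2014, or −1.33 and −2.35. In these 3 genes both genotypes were lower in 2014, and the ago2-1 array by more. For LOC4349162 this rests on the intensity of 7.52, at percentile 5.25 of its array, and with values under 16 raised to 16 the differences were −1.33 and −1.26.

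LOC4333734, LOC4348937 and LOC4324244 followed the same order. LOC4333734 had 2172 and 955 in 2013 and 331 and 65.4 in 2014, or −1.19 and −2.34. LOC4348937 had 1765 and 861 in 2013 and 676 and 130 in 2014, or −1.04 and −2.38. LOC4324244 had 1017 and 499 in 2013 and 629 and 142 in 2014, or −1.03 and −2.15. All 3 were bright on the arrays of 2013, above percentile 85 on both, so in that year they were lower in ago2-1 without being dim.

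LOC4345187 and LOC4334401 lay between these patterns. LOC4345187 had 102 and 28.6 in 2013 and 231 and 54.0 in 2014, or −1.83 and −2.09. LOC4334401 had 391 and 85.2 in 2013 and 202 and 71.2 in 2014, or −2.20 and −1.50. Neither gap between the years reached 1 log2.

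**Figure D2:**
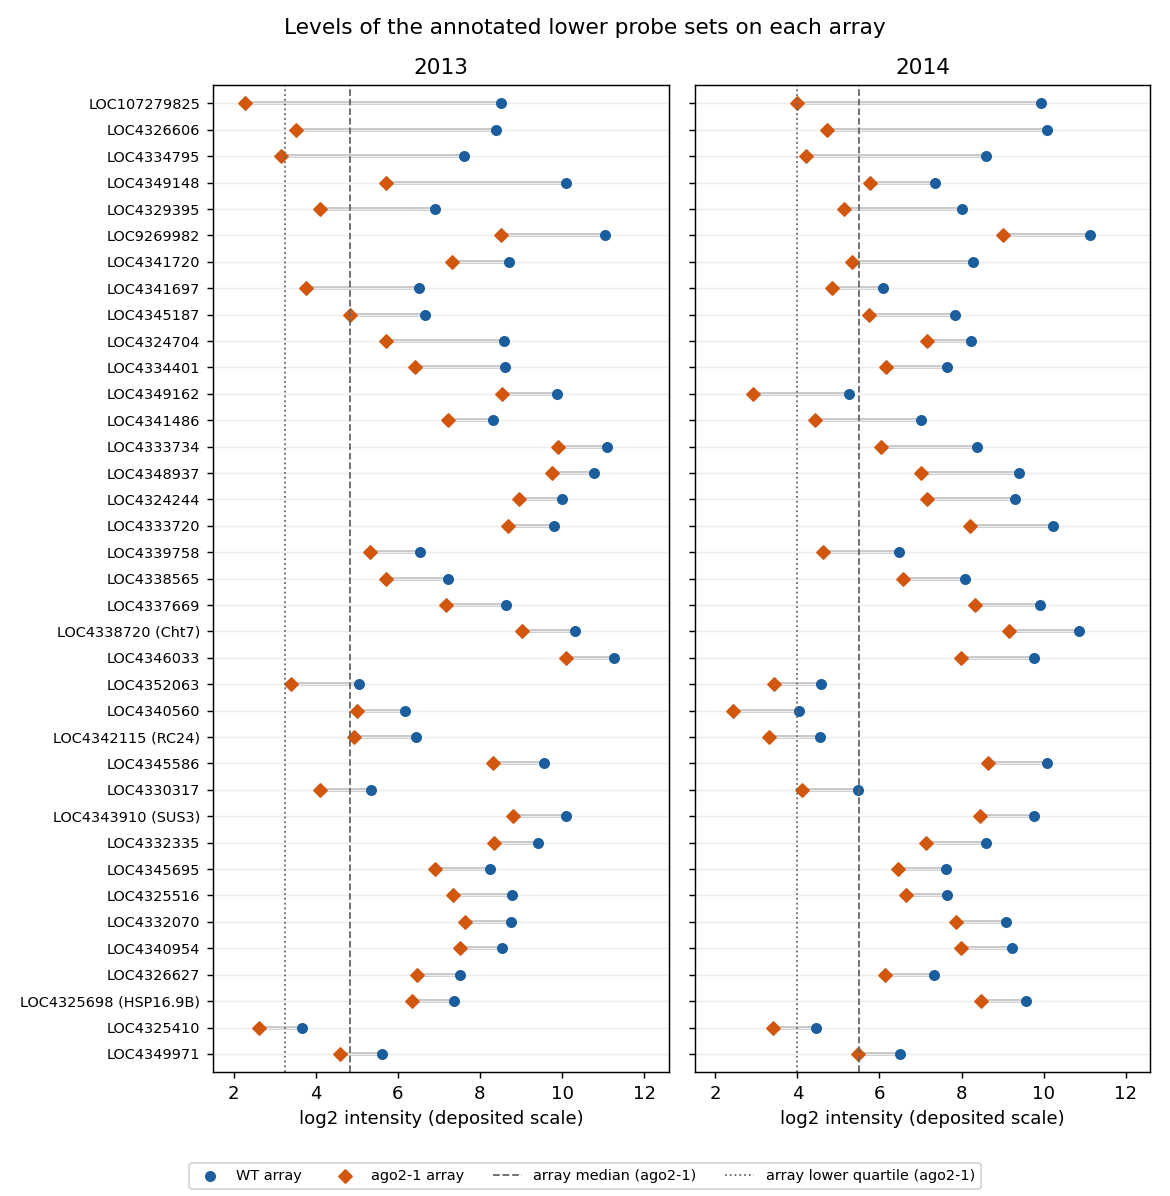
Log2 intensity on the deposited scale for the 37 annotated members, ordered by mean difference, with 2013 on the left and 2014 on the right. Blue circles are the WT array and orange diamonds the ago2-1 array of the year, joined by a grey line, with 1 array per genotype and year and so no error bar. The dashed and dotted lines give the median and the lower quartile of the ago2-1 array over all probe sets. In 2013 the diamonds of LOC107279825, LOC4334795 and LOC4325410 lie under the dotted line. In 2014 those of LOC4340560, LOC4349162, RC24, LOC4325410 and LOC4352063 lie under it, and that of LOC107279825 lies at it. Those of LOC9269982, SUS3 and Cht7 stay well above the dashed line.

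The 4 members with a named product were all lower by less than 4-fold. SUS3 (LOC4343910) had intensities of 1097 (WT) and 444 (ago2-1) in 2013 and 871 and 351 in 2014. The years gave almost the same difference, −1.30 and −1.31, which left 40.5% and 40.3% of the WT intensity. Of 5 other sucrose synthases measured, 1 was lower in both years, SUS1 with −0.21 and −0.12, against 30.0% of all genes. The medians of the 5 were 0.26 in 2013 and −0.14 in 2014.

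Cht7 (Chia1d, LOC4338720) was bright, with 1275 and 521 in 2013 and 1850 and 569 in 2014, a difference of −1.29 and −1.70. RC24 (LOC4342115) had 86.5 and 30.4 in 2013 and 23.6 and 9.92 in 2014, or −1.51 and −1.25. With values under 16 raised to 16 its 2014 difference was −0.56, under 2-fold. Both genes have another chitinase gene next to them in the gene order of RefSeq assembly ASM3414082v1. The neighbour of Cht7, LOC4338719, differed by −0.56 and −0.35, and that of RC24, LOC4342114, by −0.71 and 0.48. Of the 8 measured chitinases outside the group 3 were lower in both years, against 30.0% of all genes, and none was higher in both. The medians of the 8 were −0.61 in 2013 and −0.10 in 2014. Cht4, Cht6, Cht11, chia4a and LOC4338719 lay below the array median on all 4 arrays, so their differences rest on dim values.

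HSP16.9B (LOC4325698) lay just past the limit, with 165 and 82.0 in 2013 and 759 and 355 in 2014, or −1.01 and −1.1. Its neighbour HSP16.9A (LOC4325697), whose probe set shares the design number of the member, differed by −0.01 and −0.67. Of 18 other small heat shock genes measured, 14 were lower in both years, against 30.0% of all genes, and 1 was higher in both, HSP18.8. The medians of the 18 were −0.19 in 2013 and −0.26 in 2014, while the SD of the difference over all probe sets was 0.41 and 0.28. HSP24.1 was the lowest of them by the mean of both years, with −0.90 and −0.62. These 3 families were taken by gene symbol after the values of the members had been seen, with 1 probe set a gene, so their counts carry no test.

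The remaining 17 annotated members had mean differences closer to 0 than that of LOC4324244. Differences of about −1.5 in both years were found for LOC4338565 (−1.51 and −1.53) and LOC4337669 (−1.45 and −1.58). LOC4333720 differed by −1.11 and −2.03, LOC4339758 by −1.22 and −1.85, and LOC4346033 by −1.19 and −1.78. LOC4345586, with −1.25 and −1.44, and LOC4332335, with −1.08 and −1.47, had intensities of 319 and 324 on the ago2-1 array of 2013. LOC4339758 had 39.8 and 24.8 on the ago2-1 arrays.

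Others with a smaller but even difference were LOC4345695 (−1.34 and −1.19), LOC4325516 (−1.43 and −1.01), LOC4332070 (−1.12 and −1.21), LOC4340954 (−1.03 and −1.23) and LOC4326627 (−1.03 and −1.21). LOC4352063 (−1.65 and −1.14), LOC4340560 (−1.18 and −1.60), LOC4330317 (−1.25 and −1.37), LOC4349971 (−1.04 and −1.01) and LOC4325410 (−1.06 and −1.03) had at most 89.8 on any array, although LOC4340560, LOC4349971, LOC4330317 and LOC4352063 lay above the median of the WT array of 2013. With intensities under 16 raised to 16, the mean difference was −0.82 for LOC4352063, −0.60 for LOC4340560 and −0.22 for LOC4325410. These 3 and RC24 are the 4 annotated members that were then under 2-fold lower in a year. LOC4340560 had an intensity of 5.42 at percentile 0.414 on the ago2-1 array of 2014.

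The members' levels are also values that the rule used, and a fall of at least 2-fold favours bright WT values. On the WT arrays their median percentile was 80.0 in 2013 and 73.0 in 2014, and 54 of 71 lay above the array median in both years. None was under the 25th percentile on both WT arrays, a level that the rule itself makes unlikely. On the ago2-1 arrays the median percentile was 59.4 and 49.8. There 32 members lay above the array median in both years, and 7 lay under the 25th percentile in both. Under that percentile lay 9 members in 2013 and 17 in 2014. No detection call came with the intensities, so whether these lay above background was not tested. With intensities under 16 raised to 16, 56 of the 71 were still at least 2-fold lower in both years.

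Other probe sets of the same genes gave a mixed account. Of the 37 genes 29 have 1 probe set, and 8 have 9 further ones. None of the 9 was 2-fold lower in both years, and 3 lay within 0.11 of 0 in both. By sign alone 7 were lower in both, among them those of LOC4326606 and LOC4325410, which lay within 0.11 of 0. Over all genes, read from 1 probe set each, 30.0% were lower in both years. The sharpest contrast was LOC4326606, whose second probe set, Os.11466.1.S1_at, had log2 intensities of 9.72 (WT) and 9.71 (ago2-1) in 2013 and 11.04 and 10.93 in 2014. The genotypes differed by −0.0025 and −0.10 on it, so of the gene's 2 probe sets only the member showed the mean difference of −5.12.

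The second probe set also hardly differed for LOC4325410 (−0.02 and −0.06) and LOC4352063 (0.06 and −0.06), where its level in LOC4352063 was at most 2.63 log2. LOC4340954 had opposite signs on its second probe set, 0.80 and −0.23. The second probe sets of LOC4330317 (−0.87 and −0.76) and LOC4326627 (−0.73 and −0.43) were lower in both years by less than the member. So were that of LOC4333720 (−0.35 and −0.33) and both of LOC4324244, one with −0.67 and −0.96 and the other with −0.48 and −0.30. For these last 4 genes the direction was shared by every probe set, and its size was not. Since the members were picked as the lower ones, a smaller difference on the others is what the choice favours.

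**Figure D3:**
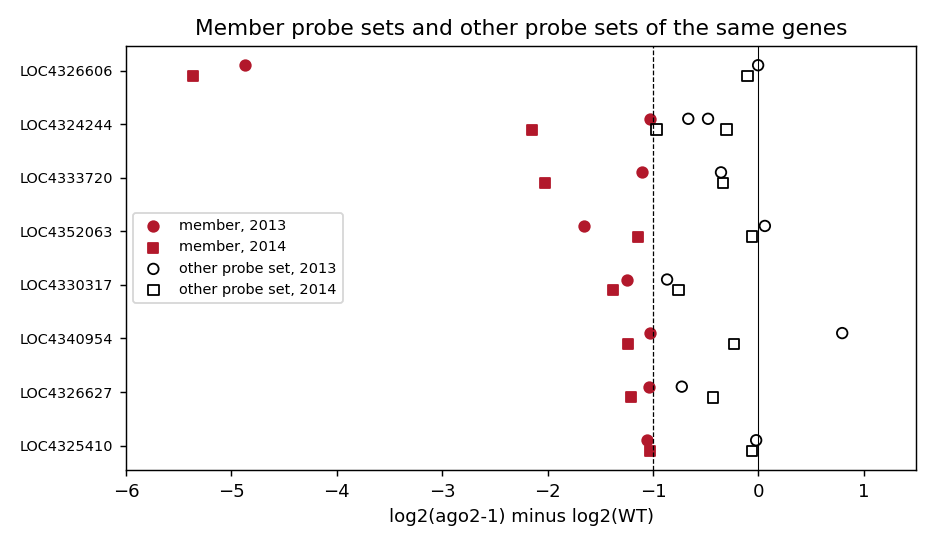
Log2 difference, ago2-1 minus WT, for the 8 member genes with more than 1 probe set. Filled red symbols are the member and open symbols the 9 other probe sets, circles for 2013 and squares for 2014, each from 1 array per genotype, and the dashed line marks −1. The open symbols of LOC4326606 sit at 0 while its filled ones lie near −5, and no gene has both open symbols of a probe set at or left of the dashed line.

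Probe sets that share only a design number with a member were also looked at. OsAffx.17435.1.S1_s_at, which has no gene listed and shares its number with the member of LOC4346033, differed by −0.85 and −1.88, close to the −1.19 and −1.78 of the member. The 3 probe sets of LOC4349161, the gene next to LOC4349162, share its number too and differed by −0.17 to −0.42 over both years. Among unannotated members, 7 probe sets outside the group share a number with one of them. Of these 7, 6 were lower in both years, while 30.0% of all genes were. That share is of annotated genes read from 1 probe set each. Most of the 7 have no gene listed and some share a number with one another, so they are not independent measures.

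The member genes were spread over the genome. They lie on 10 of the 12 chromosomes, with 7 genes each on chromosomes 1 and 6, 6 on chromosome 3, and none on chromosomes 4 and 9. Chromosome 6 holds 18.9% of the member genes and 7.82% of all genes with a probe set. No 2 member genes lay within 5 genes of each other in the RefSeq gene order; the nearest pair, LOC4349148 and LOC4349162 on chromosome 10, were 19 genes apart. Of 184 measured genes within 5 genes of a member none was 2-fold lower in both years. They had a median mean difference of −0.04, against 0.01 over all genes, and 36.4% were lower in both years, against 30.0% of all genes. The lowest neighbour was LOC4334399, near LOC4334401, with −1.14 and −0.88.

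The change between the seasons, averaged over the genotypes, is a contrast that the rule did not use, although the spread of its test is. It was tested with limma after quantile scaling, with genotype as a term and adjustment over all 57194 probe sets. In that fit 31 of 71 members fell from 2013 to 2014 and 5 rose, while 11.1% of all probe sets fell and 12.2% rose. The members thus fell in 43.7% of cases, and the median change was −0.37 over the members and 0.01 over all probe sets. Among the 88 probe sets that were at least 2-fold higher in ago2-1 in both years 8 fell and 24 rose. In sizes alone, 20 members, or 28.2%, were at least 2-fold lower in 2014 on the arrays of both genotypes, against 1.83% of all probe sets. The test has 1 residual degree of freedom, which is the gap between the 2 yearly genotype differences, so the errors and p-values of members draw on values that the rule used. With 1 spread for all probe sets, an alternative added after the data were seen in which a member's own gap has no part, 31 members fell (29 of them the same) and 7 rose, against 9.38% and 9.04% of all probe sets. With values under 16 raised to 16 after scaling, an alternative added after the data were seen, 21 members fell and 3 rose, against 5.89% and 6.90% of all probe sets, those left out of that fit counted as not called. A fit without 1 array cannot hold the genotype term, so the genotype difference that the rule used enters its spread and its estimate. Such a fit also leaves 1 array in 1 year, so its counts of calls are not given. Most of the 31 calls were lost whichever array was left out. Without either array of 2014 no probe set of the whole array was called, member or not, so the loss there is not particular to the members. Without the WT array of 2013 other probe sets were still called and no member was. Without the ago2-1 array of 2013 some members were still called as lower. In members the genotype difference raises the estimate of the first of these fits and lowers that of the other. Their contrast thus follows in part from the rule and is not read as a result on the members.

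LOC4349162 had the largest change, and fell by 5.82 ± 0.28 (SE) log2 after quantile scaling (adjusted p = 0.0013). The WT change was −5.22 and the ago2-1 change −6.42. LOC4333734 fell by 3.90 ± 0.27 (adjusted p = 0.0025), LOC4340560 fell by 3.12 ± 0.18 (0.0017), LOC4341486 fell by 2.69 ± 0.34 (0.0093) and LOC4348937 fell by 2.65 ± 0.32 (0.0081). The chitinase RC24 fell by 2.46 ± 0.13 (0.0015) and LOC4346033 fell by 2.41 ± 0.18 (0.0028). In each of these the arrays of both genotypes were lower in 2014.

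Smaller changes were called for 11 other annotated members. LOC4324244 fell by 1.86 ± 0.27 (adjusted p = 0.012), LOC4341720 fell by 1.84 ± 0.35 (0.022), LOC4332335 fell by 1.64 ± 0.15 (0.0045) and LOC4325516 fell by 1.53 ± 0.15 (0.0058). LOC4334401, LOC4345695, LOC4339758, SUS3, LOC4352063, LOC4326627 and LOC4330317 also fell, with changes from −1.23 to −0.61. SUS3 among them fell by 0.95 ± 0.12 (0.0096). On the deposited scale, where all probe sets had a median change of 0.71 between the years, the value for LOC4330317 was 0.063 and no longer negative.

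The annotated members that rose were 4. HSP16.9B rose by 1.53 ± 0.12 log2 (adjusted p = 0.0034), LOC107279825 by 0.86 ± 0.12 (0.012), LOC4326606 by 0.80 ± 0.17 (0.029) and LOC4337669 by 0.60 ± 0.12 (0.028). The other 15 annotated members were not called. LOC4349148 was among them, at −1.95 ± 0.61 (adjusted p = 0.071), with a WT change of −3.35 and an ago2-1 change of −0.55. With the floor of 16 set after scaling, LOC107279825, LOC4326606, LOC4341720, LOC4352063 and LOC4330317 were no longer called, LOC107279825 stood at 0.40 and LOC4340560 at −1.91.

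**Figure D4:**
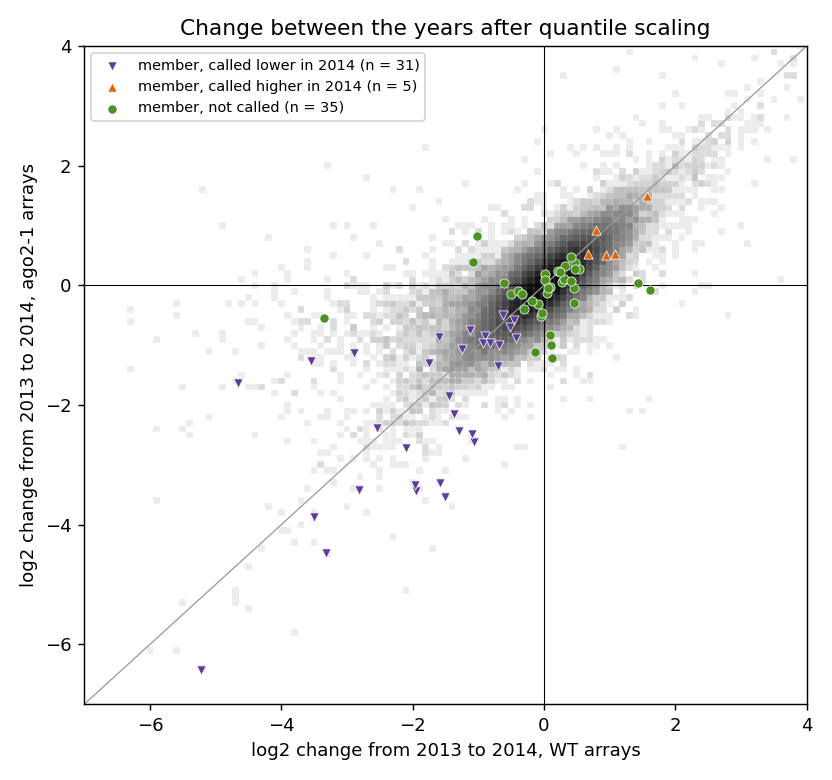
Log2 change from 2013 to 2014 after quantile scaling, with the WT change on the horizontal axis and the ago2-1 change on the vertical axis. Grey squares are counts of all 57194 probe sets in bins (darker is more, axes limited to the range shown), and coloured symbols are the 71 members, as downward triangles for the 31 that fell by limma, upward triangles for the 5 that rose and circles for the 35 not called. The thin diagonal marks equal changes in both genotypes. The downward triangles reach from near 0 to LOC4349162 at −5.22 and −6.42, and all lie in the lower left of the plot.

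After quantile scaling 55 of the 71 members had both ago2-1 values below both WT values. That order held for 9.87% of all probe sets, and for the members it follows in part from the rule. In the other 16 an ago2-1 value of 1 year reached or passed the WT value of the other year.

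Markers of other tissues were read beside the members, with no test. Among 7 measured genes of the tapetum and pollen wall, 6 had lower values on the ago2-1 arrays of both years, against 30.0% of all genes. EAT1 among the 6 differed by −0.35 and −0.02. The medians of the 7 were −0.35 in 2013 and −0.33 in 2014, and none was 2-fold lower in both. The SD of the difference over all probe sets was 0.41 in 2013 and 0.28 in 2014. MSP1 was slightly higher, at 0.08 and 0.04. The summed intensity of the 7 was 6475 (WT) and 5004 (ago2-1) in 2013 and 6499 and 5054 in 2014. TDR, a bHLH regulator of the tapetum, differed by −0.67 and −0.89, and CYP703A3, a fatty acid hydroxylase of the pollen wall, by −0.86 and −1.65. C6 lay below the array median on all 4 arrays, and PTC1 lay above it on only 2. Of the 11 meristem markers 8 were higher in both years, with medians of 0.14 and 0.23 and sums of 17429 and 20034 in 2013 and 26418 and 30609 in 2014. The share of all genes higher in both years is not given here, so this count has no baseline. None of the 4 meiosis or 4 green tissue genes measured had the same direction in both years. No gene of these lists is a member, and the part of tissue make-up in the members' differences was not tested.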

How the data were processed

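Young panicles of WT and ago2-1 rice were measured on 4 Affymetrix arrays, 1 for each genotype and year. The authors deposited 1 linear intensity per probe set and array, and RMA is named, with no version, per the submitters' processing notes. The extraction label describes a human sample, so RNA extraction is treated as unstated. The number of arrays limits the precision.

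Here log2 was taken with no pseudocount and no filter. Genes come from the platform annotation, with symbols and gene order from RefSeq assembly ASM3414082v1, whose coordinates were not used. The members, lists and tests were chosen with earlier results of these data known. All annotated members are named, as are the 4 members without a gene and with the largest mean difference; others without a gene were named after their values were seen. Other genes are read from the probe set with the highest mean. Marker genes were reached by symbol or synonym, which gave 26 of 43, ZEP1 not among them because that name also reaches a zeaxanthin epoxidase.

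The year change was fitted with limma 3.58.1 (lmFit and eBayes, R 4.3.3) on all probe sets after quantile scaling, year and genotype as terms, Benjamini-Hochberg adjustment and a threshold of 0.05; the fit was tested on simulated data. Its prior had 4.48 and its residual 1 degree of freedom. Nothing says that arrays of a genotype are separate biological replicates beyond their year, so p-values reflect only how much these 4 arrays scatter. Alternatives changed the scaling, the fold limit, dim values, the probe set type, the prior or shared variance, the threshold and the arrays used. A count of promoter motifs was planned and not made.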

Additional observations from a re-analysis of the deposited data

Results flagged for a closer look

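For 7 members the WT arrays moved one way between 2013 and 2014 and the ago2-1 arrays the other, after quantile, median and cyclic loess scaling alike. The share of all probe sets with such opposite changes is not given here, so the count of 7 has no baseline. With 1 array for each genotype and year, the difference was not tested. Values are log2 changes after quantile scaling. LOC4324704 changed by −1.02 in WT and 0.83 in ago2-1, a difference of 1.85. LOC4341697 changed by −1.08 and 0.39, a difference of 1.47. Os.50472.1.S1_at changed by 1.61 and −0.07, a difference of −1.68, and Os.50472.2.S1_s_at by 0.12 and −1.21, a difference of −1.33. Os.6758.1.S1_at changed by 0.45 and −0.29 (−0.75), Os.50122.1.S1_at by 0.09 and −0.83 (−0.92) and LOC4340954 by 0.04 and −0.14 (−0.18).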

How the results depend on the processing

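The number of members, 71, was 69 after quantile scaling (67 shared), 68 with each array centred on its median (68 shared), 73 after cyclic loess (70 shared), 56 with intensities under 16 raised to 16, 54 above the median mean level and 62 without _x_at and _s_at probe sets. It was 321 at a 1.5-fold limit and 11 at 4-fold, and it ranged from 166 to 904 when a single year was used. No member's mean difference changed sign under the 3 scalings or the floor of 16.

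For the change between the years, the members that fell (31) were 31 after median or cyclic loess scaling or with a trend, against 10.4%, 11.7% and 12.3% of all probe sets. They were 22 on the deposited scale (31.0%, against 2.31% of all probe sets) and 33 at a threshold of 0.1 (46.5%, against 17.5%). With no genotype term they were 4 (5.63%, against 7.42%), so no excess of members was seen there. They were 0 with a floor of 16 set before scaling, where 0% of all probe sets were called. In that fit 14 members had an unadjusted p under 0.05 by limma. The share of all probe sets under that unadjusted limit is not given here. This count and those below at the same limit therefore have no baseline. In the same fit many probe sets tied at the floor had a variance of 0. They were 10 with that floor and probe sets under it on all arrays left out (14.1%, against 2.93% of all probe sets). With the floor set after scaling they were 21 (29.6%, against 5.89%). Both were added after the data were seen, as was 1 spread for all probe sets, with 31 (43.7%, against 9.38%). Without 1 array the counts of calls are not given, since such a fit leaves 1 array in 1 year. The members that rose (5) were 6 after median scaling (8.45%, against 16.3% of all probe sets) and 5 after cyclic loess or with a trend (7.04%, against 10.8% and 13.4%). They were 7 with 1 spread for all (9.86%, against 9.04%), 28 on the deposited scale (39.4%, against 78.2%) and 9 at a threshold of 0.1 (12.7%, against 19.1%). With no genotype term they were 0, against 8.73%, and 1 had an unadjusted p under 0.05 by limma. Under the 3 floors they were 0, 1 and 3, against 0%, 3.45% and 6.90%, and 7 had such an unadjusted p under the first. None of these calls held when 1 array was left out. LOC4330317 changed by 0.063 on the deposited scale. Without 1 array the sign turned for 4 genes, with values from −1.31 to 0.093 for LOC4330317, −2.20 to 3.92 for LOC107279825, −1.90 to 3.50 for LOC4326606 and −0.21 to 1.40 for LOC4337669. Each such value holds part of the genotype difference that the rule used. The turn of sign thus follows in part from the rule and is not read as a result on the year change. With no genotype term or without 1 array the members' genotype difference enters the spread by construction. Without 1 array it enters the estimate of the year change as well. The year pairs the arrays in the genotype differences, which carry no test. Signal over background could not be set for dim members, since no detection call was used here.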

Other observations

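Probe sets with the prefix OsAffx made up 25.4% of the members and 44.6% of all probe sets, and those with the suffix _x_at 7.04% and 12.5%. Of the 54 members above the median mean level of all probe sets, 23 fell and 5 rose between the years, against 10.7% and 12.5% of all probe sets above that level.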
